A study of Mus musculus with 41 samples.

Results

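The 9 genes described here belong to the machinery by which bone cells sense mechanical load and answer it, and they were read in RNA of mouse tibia. They are the ion channel genes Piezo1 and Piezo2, the genes Gja1 (connexin 43) and Panx3 (pannexin 3), which build channels between cells or to the outside of a cell, the coactivator genes Yap1 and Wwtr1 (TAZ), their target genes Ctgf and Cyr61, and the load-induced enzyme gene Ptgs2 (COX-2). They were taken by gene symbol from a table of read counts of 43346 genes, and all 9 were present and among the 19292 genes that passed the filter on low counts. The table covered 41 INK-ATTAC mice on a C57BL/6 background, with 1 library of centrifuged tibia diaphysis per mouse. By the methods of the study the mice were female. INK-ATTAC is a transgene driven by a promoter of p16Ink4a, a gene switched on in senescent cells, and the drug AP20187 (AP) activates its product so that the cells that express it die. The clearance therefore reaches only cells in which that promoter is active, and every mouse, the young ones included, carried the transgene. Young mice (n = 12) were 6 to 12 months old by the labels and are also labelled as vehicle mice. The methods of the study name the lower end of that range alone. The old mice fell into a vehicle-treated group (n = 13) and an AP-treated group (n = 16). Treatment began at 20 months of age and ran for 4 months, with injections 2 times a week of vehicle or of AP20187 at 10 mg/kg, and the mice were 24 months old at the end. There was no young group with AP.

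In bone, load is felt mainly by osteocytes, cells buried in the mineral and joined to each other and to surface osteoblasts by long processes. Fluid flow and membrane stretch open PIEZO channels and let calcium in. Connexin 43 forms gap junctions and hemichannels through which signals and prostaglandins pass, and pannexin 3 forms channels in cells of the osteoblast and chondrocyte lineages. YAP and TAZ enter the nucleus when the cytoskeleton is under tension and the Hippo kinases are quiet, and there they act through the TEAD family of DNA-binding proteins. CTGF and CYR61 are secreted matrix proteins of the CCN family whose genes are among the best known targets of YAP and TAZ. COX-2 makes the precursor of prostaglandin E2, a signal that loaded bone cells release.

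Total counts per mouse ran from 37028959 to 75942717 (median 47774880), and mice of a group differed in their counts by far more than the sampling noise, with a variance ratio of at least 31.9 for every pair. The labels name no sequencing batch. Osteocyte genes were present in every library, with medians of 530 CPM (reads relative to the depth of each library) for Dmp1 and 183 CPM for Sost in young mice, and so were genes of other cells. AP mice 18 and 19 stood apart, with 316 and 321 CPM summed over the 8 osteocyte markers, beside 985 CPM or more in each other mouse, with the lowest sums of vascular smooth muscle and pericyte markers (270 and 183 CPM, beside at least 290.04 CPM) and with high neutrophil markers (25769 and 34616 CPM). The 10 skeletal muscle markers together held a median of 45352 CPM in young, 73512 CPM in vehicle-treated and 50977 CPM in AP-treated mice, the 8 osteoblast markers 67201, 39640 and 31094 CPM, and the 8 neutrophil markers 11148, 15668 and 16225 CPM. Such tissue libraries cannot tell fewer cells of a type from less RNA per cell. Cdkn2a, the gene of p16Ink4a, was higher in old vehicle-treated than in young mice by 2.22 on the log2 scale (edgeR adjusted p = 0.000332) and its difference between AP and vehicle was -0.67 (adjusted p = 0.265).

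Gja1 fell to about 0.505 of its young level in old vehicle-treated mice and to 0.499 in old AP-treated mice. Cyr61 fell to 0.491 of its young level in old AP-treated mice, a comparison in which age and AP differ together, and was not called in vehicle-treated mice. Ptgs2 passed the test as higher in vehicle-treated mice, a call that rested on 1 mouse. The other 6 genes, Piezo1, Piezo2, Panx3, Yap1, Wwtr1 and Ctgf, passed in none of the comparisons. Calls needed an edgeR adjusted p below 0.05 together with a change of more than 0.5 on the log2 scale in either direction. In old vehicle-treated against young mice 2 of the 9 genes were called, 1 higher and 1 lower, where 9.06% of all genes tested were called (4.30% higher, 4.76% lower). In old AP-treated against young mice 2 of 9 were called, both lower, against 8.58% of all genes (3.73% higher, 4.85% lower). Between the old groups 0 of 9 were called, against 0.0726% of all genes (0.0259% higher, 0.0467% lower). The unadjusted edgeR p was under 0.05 for 6 of 9 genes in vehicle against young, beside 31.8% of all genes. For AP against young this held for 3 of 9, beside 32.2%. In the comparison of the old groups it held for 3 genes, Yap1, Wwtr1 and Cyr61, and for 23.9% of all genes. DESeq2 called 1 (Cyr61), and 8 of the 9 log2 fold changes were negative, beside 50.6% of all genes tested, with a median of -0.22 beside -0.0037. Without AP mice 18 and 19, 6 of the 9 were negative and the median was -0.14, beside 51.4% and -0.0063 over all genes. The comparisons share mice: the young group enters both age comparisons, and the vehicle group enters the age comparison and the AP comparison.

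**Figure D1:**
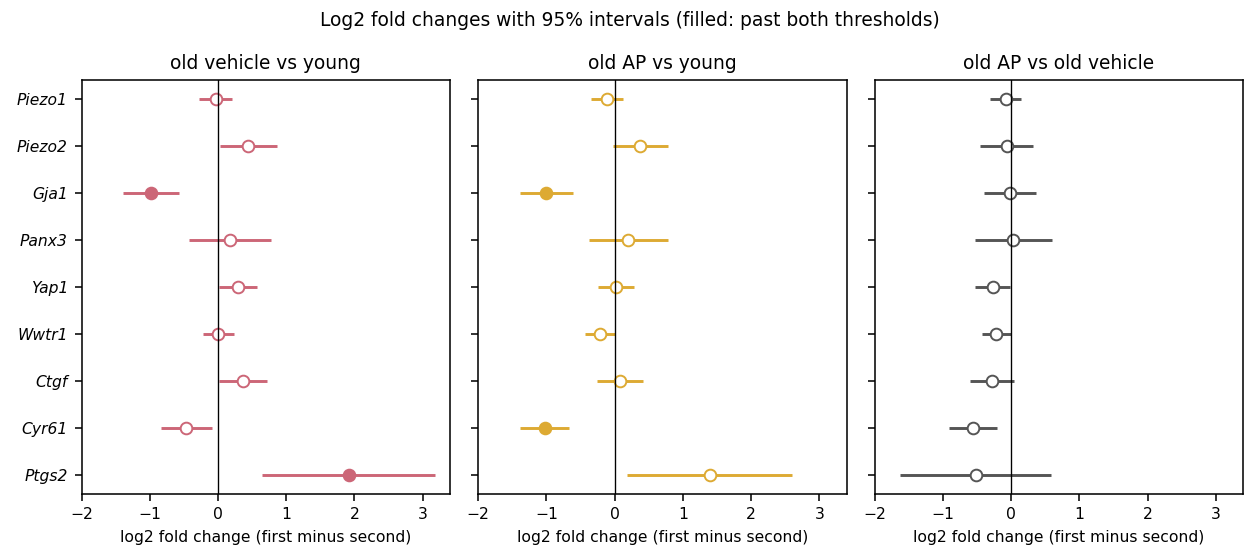
Log2 fold change of each of the 9 genes (first group minus second) in the 3 comparisons; the bars are 95% intervals and filled points passed both thresholds. Gja1 lies near -1 in both age comparisons and near 0 between the old groups, and the intervals of Ptgs2 are the widest in each panel.

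**Figure D2:**
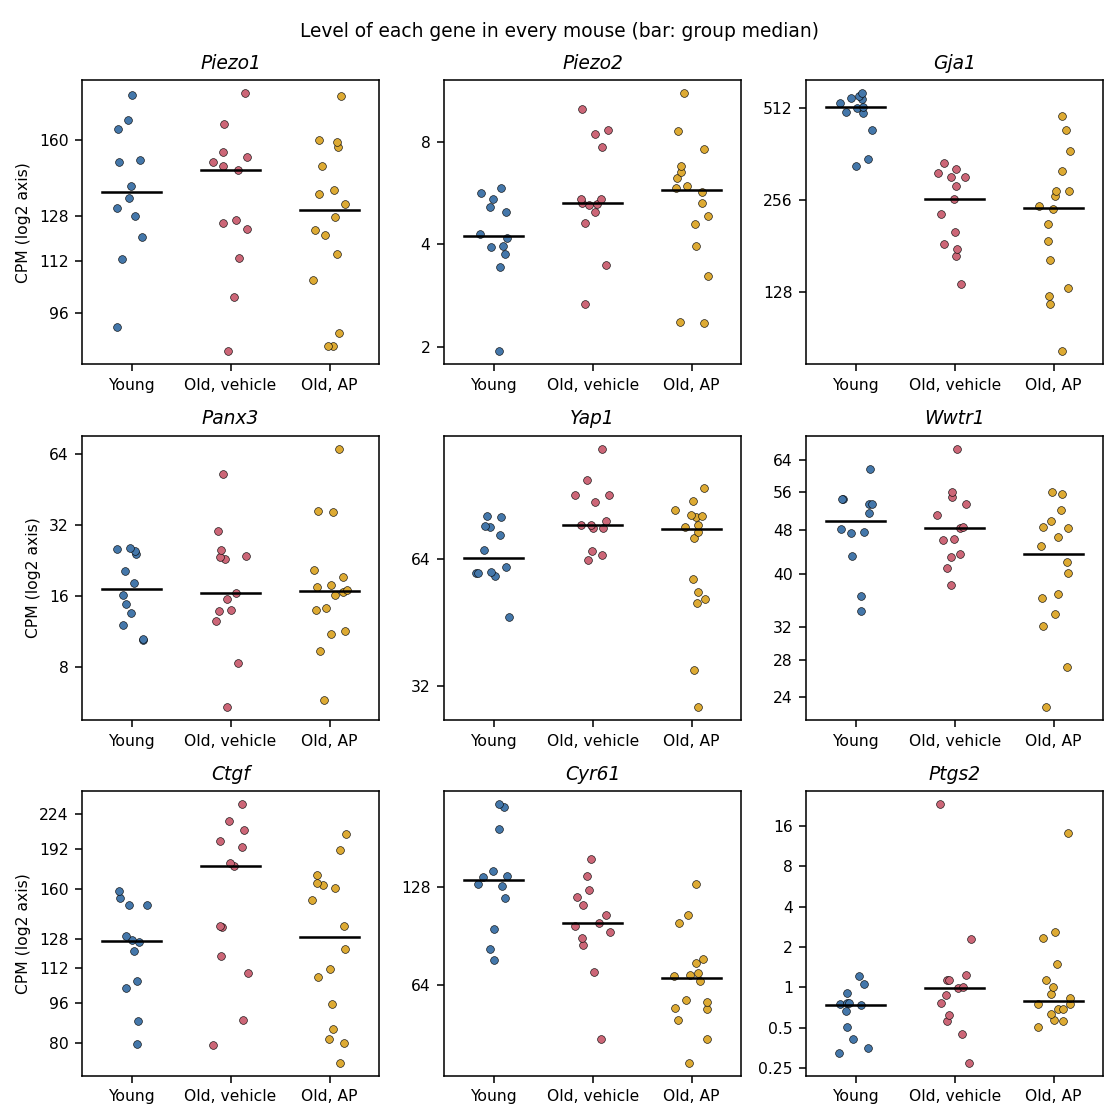
CPM of each gene in each of the 41 mice on a log2 axis, with the median of each group as a bar. All old mice but 4 lie below the lowest young mouse for Gja1 (331 CPM), and for Ptgs2 vehicle mouse 16 (23.2 CPM) and AP mouse 10 (14.2 CPM) stand far above all other mice.

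The levels of the genes spanned a wide range when taken per length, as RPKM, the CPM divided by the annotated gene length in kilobases. In young mice the medians ran from Gja1 at 166 RPKM through Cyr61 (66.1 RPKM), Ctgf (44.2 RPKM), Piezo1 (13.8 RPKM), Wwtr1 (10.4 RPKM), Yap1 (6.93 RPKM) and Panx3 (6.46 RPKM) down to Piezo2 (0.290 RPKM) and Ptgs2 (0.163 RPKM). Each gene was above the next in at least 10 of the 12 young mice, except Yap1, which was above Panx3 in 8 of 12. In both old groups Ctgf stood above Cyr61: the median level of Ctgf was 62.2 RPKM and that of Cyr61 48.9 RPKM in vehicle-treated mice (8 of 13 mice in that order), and 45.1 against 32.997 RPKM in AP-treated mice (15 of 16). Ptgs2 had the lowest median RPKM in each group, and Piezo2, next above it, was higher than Ptgs2 in 11 of 12 young, 11 of 13 vehicle-treated and 11 of 16 AP-treated mice. The order of the neighbours Yap1 and Panx3 (8 of 12, 9 of 13 and 9 of 16 mice in this order) varied between mice. So did that of Ctgf and Cyr61 in vehicle-treated mice. Differences in RPKM between genes were not tested.

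Neither PIEZO gene passed the test in any comparison. Piezo1, the stretch-opened channel gene with the main known role in bone cells, lies on chromosome 8 (122481698 to 122551329, GRCm38). It had 92.1, 137 and 183 CPM as the lowest, median and highest value in young mice, 85.7, 147 and 184 CPM in vehicle-treated mice and 87.2, 130 and 183 CPM in AP-treated mice. These ranges lay almost on top of each other. Its log2 fold change was -0.03 ± 0.12 (SE) for vehicle against young (95% interval -0.27 to 0.21, adjusted p = 0.885), -0.11 for AP against young (-0.34 to 0.12, adjusted p = 0.522) and -0.08 for AP against vehicle (-0.30 to 0.14, adjusted p = 0.666). The gene overlaps Gm20388 and Ctu2 on the other strand, whose counts over all mice were 78.9% and 9.09% of its own. Whether strand was used in counting is not given in the sources used here, so how reads in the overlaps were assigned or dropped is not known. Piezo2, the relative best known for touch and body position sense in sensory neurons, was a low gene, with 99 to 487 reads per library. Its lowest, median and highest values were 1.94, 4.23 and 5.84 CPM in young, 2.68, 5.31 and 10.0 CPM in vehicle-treated and 2.34, 5.77 and 11.1 CPM in AP-treated mice. The highest values were all in old mice, with 4 of 13 vehicle-treated and 8 of 16 AP-treated mice above the highest young mouse. On the log2 scale the difference was 0.44 ± 0.21 (SE) for vehicle (adjusted p = 0.129) and 0.38 ± 0.20 for AP (adjusted p = 0.177) against young, and -0.06 between the old groups (-0.45 to 0.32, adjusted p = 0.857).

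Gja1, the most abundant of the 9, was lower in old bone with and without AP. Connexin 43 is the main connexin of osteoblasts and osteocytes, and its gene lies on chromosome 10 (56377300 to 56390419). Its lowest, median and highest values were 331, 515 and 573 CPM in young mice, 137, 259 and 340 CPM in vehicle-treated mice and 82.1, 242 and 484 CPM in AP-treated mice. All 13 vehicle-treated mice lay below the young median, and 12 of them, all but mouse 16, lay below the lowest young mouse. All 16 AP-treated mice lay below the young median and 13 below the lowest young mouse, while mice 10, 12 and 27 reached into the young range. Gja1 had a log2 fold change of -0.99 ± 0.20 (SE) for vehicle against young (adjusted p = 0.000554) and -1.002 ± 0.19 for AP against young (adjusted p = 0.000321). The call held in each of the 41 fits that left out 1 mouse, with values from -1.03 to -0.93 and from -1.10 to -0.94. Between the old groups the difference was -0.02 ± 0.19 (adjusted p = 0.964), with a 95% interval of -0.40 to 0.36. The spread was wider under AP, with an SD of 115 CPM beside 68.7 CPM in vehicle-treated and 79.9 CPM in young mice; the difference in spread was not tested. Osteoblast markers moved with it: the summed CPM of the 8 ran from 33235 to 88129 in young, 14598 to 77249 in vehicle-treated and 6047 to 67642 in AP-treated mice, and 3 and 6 of the 8 were called lower with age in vehicle-treated and AP-treated mice. The summed chondrocyte markers were lower in old mice too (medians of 1664, 607 and 623 CPM in young, vehicle-treated and AP-treated mice). So were the fibroblast and tendon markers (2814, 1355 and 1207 CPM). In both lists 2 genes were called lower in each old group, and 1 fibroblast and tendon gene was called higher in vehicle-treated mice. Col2a1 held most of the chondrocyte sum. Postn (1075, 289 and 251 CPM) and Dcn (1217, 573 and 521 CPM) held most of the other sum. Thbs4 (166, 255 and 179 CPM) and Pi16 (59.5, 68.1 and 64.3 CPM) had higher medians in both old groups. The summed osteocyte markers were not lower in old mice (medians of 1472, 1533 and 1586 CPM), with 2 genes called higher and 2 lower in each old group. The part of any of these markers in the lower Gja1 level was not tested.

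The start region of Gja1 is shown because Gja1 is the gene that was called in both age comparisons under every alternative run. Starts were taken from RefSeq (GRCm38.p6), where 6 of the 9 genes matched (Piezo1, Gja1, Yap1, Wwtr1, Cyr61 and Ptgs2, and not Piezo2, Panx3 and Ctgf), and the 250 bases before each start were searched on both strands for the TEAD hexamer GGAATG, the AP-1 motif TGANTCA and the cyclic AMP response element TGACGTCA, none of which contains another. The Gja1 window, chr10:56377050-56377299 on the plus strand, held 1 AP-1 match, in capitals, whose first base lies 19 bases before the start.
Gja1 upstream region: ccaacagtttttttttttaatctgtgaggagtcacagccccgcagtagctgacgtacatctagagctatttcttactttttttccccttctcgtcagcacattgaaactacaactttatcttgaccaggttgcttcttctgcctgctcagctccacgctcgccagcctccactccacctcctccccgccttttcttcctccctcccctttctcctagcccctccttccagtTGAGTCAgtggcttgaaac
Of 32851 RefSeq windows of the same length, 6.75% held the AP-1 motif, 12.6% the TEAD hexamer and 1.55% the cyclic AMP response element. The windows of Piezo1 and Ptgs2 held none of the 3 motifs. A match is a run of letters and not a measured binding site.

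Panx3, whose channels release ATP and carry calcium during osteoblast differentiation, passed no test. The gene lies on chromosome 9 (37659902 to 37669222). Its lowest, median and highest values were 10.4, 17.2 and 25.5 CPM in young, 5.40, 16.4 and 52.7 CPM in vehicle-treated and 5.79, 16.8 and 67.5 CPM in AP-treated mice. The group medians were close while the old groups spread wider on both sides, with 2 vehicle-treated mice above and 2 below the whole young range, and 3 AP-treated mice above and 2 below it. For Panx3 the log2 fold change was 0.17 ± 0.30 (SE, adjusted p = 0.738) for vehicle and 0.20 ± 0.28 (adjusted p = 0.663) for AP against young, and 0.03 (-0.53 to 0.59, adjusted p = 0.956) between the old groups. Vehicle mouse 16 and AP mouse 27 held the highest values of their groups for Panx3 and also for Gja1, and the sign of the Panx3 difference turned without them (-0.034 for vehicle without mouse 16 and -0.033 for AP without mouse 27, against young).

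Yap1 and Wwtr1, the paired coactivator genes, passed no test, and in the AP comparison both had an interval just below 0. Yap1 (chromosome 9, 7931999 to 8004596) had 46.6, 64.2 and 81.1 CPM as the lowest, median and highest value in young, 63.7, 77.0 and 117 CPM in vehicle-treated and 28.5, 75.2 and 94.2 CPM in AP-treated mice. Of the vehicle-treated mice 12 of 13 lay above the young median and 5 above the highest young mouse, while AP mice 18 and 19, at 34.8 and 28.5 CPM, lay below every mouse of the other groups. Yap1 differed on the log2 scale by 0.30 ± 0.14 (SE, adjusted p = 0.123) for vehicle against young, 0.02 ± 0.13 (adjusted p = 0.920) for AP against young and -0.27 (-0.53 to -0.02, adjusted p = 0.182) for AP against vehicle. Skeletal muscle markers had the same order of group medians as Yap1 (young, AP, vehicle from low to high), and their part in these values was not tested. Wwtr1 (chromosome 3, 57455649 to 57575910) had 34.2, 49.8 and 61.8 CPM in young, 38.2, 48.3 and 67.1 CPM in vehicle-treated and 23.01, 43.4 and 56.2 CPM in AP-treated mice. AP mice 18 and 19 were again the lowest, at 27.2 and 23.01 CPM, and 6 of 16 AP-treated mice lay below the lowest vehicle-treated mouse. For Wwtr1 the values were 0.01 ± 0.11 (adjusted p = 0.981) for vehicle and -0.22 ± 0.11 (adjusted p = 0.160) for AP against young, and -0.22 (-0.43 to -0.01, adjusted p = 0.193) between the old groups. Mice 18 and 19 are the libraries with the lowest osteocyte and smooth muscle markers, and their skeletal muscle markers summed to 18006 and 8410 CPM, beside at least 15914 CPM in the other mice. Without them the difference between the old groups was -0.16 for Yap1 (adjusted p = 0.468) and -0.14 for Wwtr1 (adjusted p = 0.518), while Yap1 in vehicle-treated against young mice, at 0.29, had an adjusted p of 0.0392 and stayed under the fold threshold.

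Stretches of the Yap1 and Wwtr1 start regions are shown because this pair had the highest correlation of the 36 pairs among the 9 genes and both windows held the TEAD hexamer GGAATG, in capitals. The Yap1 match begins 141 bases before its start, in the stretch chr9:8004705-8004764 on the minus strand. The Wwtr1 match begins 136 and 170 bases before its 2 RefSeq starts, in the stretch chr3:57576014-57576073 on the minus strand.
Yap1 upstream stretch: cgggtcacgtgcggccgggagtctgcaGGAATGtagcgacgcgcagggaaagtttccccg
Wwtr1 upstream stretch: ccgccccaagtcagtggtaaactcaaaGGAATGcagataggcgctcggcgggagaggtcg
With Cyr61, 3 of the 6 matched genes held the hexamer in the window searched, beside 12.6% of all windows.

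Of the CCN genes, Cyr61 was lower in old AP-treated than in young mice and Ctgf passed no test. Cyr61 (also named Ccn1, chromosome 3, 145646971 to 145649985) had 76.5, 134 and 229 CPM as the lowest, median and highest value in young, 43.6, 99.1 and 156 CPM in vehicle-treated and 36.9, 66.9 and 130 CPM in AP-treated mice. The medians stepped down from young to vehicle to AP, with 11 of 13 vehicle-treated mice below the young median, 16 of 16 AP-treated mice below it, and 12 of these below the lowest young mouse. For AP against young the log2 fold change was -1.03 ± 0.18 (SE, adjusted p = 8.16e-05), and it was called in all 41 fits that left out 1 mouse and without AP mice 18 and 19 (-0.96, adjusted p = 0.000332). The summed osteoblast, chondrocyte and fibroblast and tendon markers were also lower in these mice, and their part in the lower Cyr61 level was not tested. Col2a1 held most of the chondrocyte sum, and Postn and Dcn most of the fibroblast and tendon sum. In that last list Thbs4 and Pi16 were not lower (medians of 166 and 59.5 CPM in young and 179 and 64.3 CPM in AP-treated mice). For vehicle against young the Cyr61 log2 fold change was -0.47 ± 0.19 (adjusted p = 0.0718). It passed without vehicle mouse 14 (-0.53, adjusted p = 0.0395), young mouse 30 (-0.52, adjusted p = 0.0411) or young mouse 31 (-0.52, adjusted p = 0.0432). For AP against vehicle it was -0.56 ± 0.17 (adjusted p = 0.0704; 14 of 16 mice below the vehicle median). That comparison passed with DESeq2 (-0.56, adjusted p = 0.0379) and without vehicle mouse 2 (-0.63, adjusted p = 0.0273), AP mouse 9 (-0.56, adjusted p = 0.0443) or AP mouse 10 (-0.61, adjusted p = 0.0427), and its adjusted p ran up to 0.225 over the alternatives, without AP mice 18 and 19 (-0.50). Ctgf (also named Ccn2, chromosome 10, 24595442 to 24598683) had 79.6, 127 and 159 CPM in young, 79.2, 178 and 234 CPM in vehicle-treated and 73.3, 129 and 205 CPM in AP-treated mice. Of the old mice, 7 of 13 vehicle-treated and 6 of 16 AP-treated lay above the highest young mouse, and the low ends of the groups coincided. For Ctgf it was 0.36 ± 0.17 (adjusted p = 0.140) for vehicle and 0.08 ± 0.16 (adjusted p = 0.775) for AP against young, and -0.28 ± 0.16 (adjusted p = 0.274; 14 of 16 mice below the vehicle median) between the old groups. Ctgf overlaps Gm15270 on the other strand, with 1.485% of its count.

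The start region of Cyr61 is shown because Cyr61 is the one of the 9 genes besides Gja1 that was called lower. Its window, chr3:145649986-145650235 on the minus strand, held 1 TEAD hexamer, read on the other strand as CATTCC and given in capitals, whose first base lies 103 bases before the start.
Cyr61 upstream region: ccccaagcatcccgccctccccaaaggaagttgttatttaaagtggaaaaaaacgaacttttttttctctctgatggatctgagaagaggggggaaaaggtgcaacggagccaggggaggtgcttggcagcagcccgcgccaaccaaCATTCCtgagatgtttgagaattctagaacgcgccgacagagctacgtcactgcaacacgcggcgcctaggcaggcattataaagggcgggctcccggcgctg
It held neither the AP-1 motif nor the cyclic AMP response element.

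Ptgs2 was near the floor of these libraries in almost every mouse, and 2 old mice set its fold changes. The gene lies on chromosome 1 (150100031 to 150108227) and had a median of 33 reads in young, 40 in vehicle-treated and 38 in AP-treated mice. Its lowest, median and highest values were 0.325, 0.744 and 1.23 CPM in young, 0.275, 0.990 and 23.2 CPM in vehicle-treated and 0.509, 0.797 and 14.2 CPM in AP-treated mice. The highest vehicle-treated mouse was number 16 (989 reads) and the next stood at 2.28 CPM. The highest AP-treated mouse was number 10 (672 reads) and the next stood at 2.60 CPM. All other mice overlapped, and 3 of 13 vehicle-treated and 4 of 16 AP-treated mice lay above the highest young mouse. The log2 fold change for vehicle against young was 1.92 ± 0.62 (SE, adjusted p = 0.0256), and without vehicle mouse 16 it was 0.43 (adjusted p = 0.573). A permutation test of the mean log2 CPM, which weighs that mouse less, gave a difference of 0.69 (two-sided unadjusted p = 0.132), and DESeq2 gave 0.42 (adjusted p = 0.319). For AP against young the value was 1.40 ± 0.60 (adjusted p = 0.0970), it was 0.56 without AP mouse 10 (adjusted p = 0.453), and it passed without vehicle mouse 16 (1.40, adjusted p = 0.0215) and in a model of the 2 groups alone (1.40, adjusted p = 0.0421). For AP against vehicle the value of -0.52 (-1.63 to 0.59, adjusted p = 0.564) became -1.36 without mouse 10 and 0.97 without mouse 16. With both mice left out the values were 0.43, 0.56 and 0.13 for the 3 comparisons, and none passed.

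Across mice, the 9 genes varied together in pairs. The relation was computed for all 36 pairs over 41 mice on log2 CPM after the mean of each group had been subtracted, with permutation within groups, and 16 pairs passed at a Benjamini-Hochberg adjusted p under 0.05 of Pearson's r, all with a positive r; 13 passed by Spearman's rho too. The values of a pair come from the same libraries and share their cell makeup. Where r is also given without 2 mice, these were the 2 farthest from the median of 1 gene alone. In a pair this was the gene named earlier in the opening list of the 9 genes, and with markers it was the gene and not the marker sum. Of all pairs among 15541 genes, 19.5% had an r at or above 0.39, the lowest that passed among the 9 genes, where 44.4% of the 36 pairs had one. Without AP mice 18 and 19, 20 of the 36 pairs passed, of which Piezo1 and Yap1 had a negative r (-0.46, adjusted p = 0.0112), and Piezo2 and Yap1 no longer passed (r = 0.45 with these mice and 0.23 without, adjusted p = 0.259). The closest pair was Yap1 and Wwtr1 (r = 0.83, rho = 0.78, adjusted permutation p = 0.00012 and 0.00018), with r = 0.89 in young, 0.58 in vehicle-treated and 0.89 in AP-treated mice, 0.74 without the 2 mice farthest from the median and 0.73 without AP mice 18 and 19. Gja1 and Panx3 followed (r = 0.73, rho = 0.67, the same adjusted permutation p), with 0.81, 0.72 and 0.76 within the groups and 0.72 without 2 mice. The unadjusted p of both pairs, 1e-05, was the smallest that 100000 resamples can give. Wwtr1 also varied with Piezo2 (r = 0.69, rho = 0.60, adjusted permutation p = 0.00012 and 0.00122; 0.54, 0.76 and 0.72 within groups; 0.64 without 2 mice) and with Gja1 (r = 0.64, rho = 0.53, adjusted permutation p = 0.00102 and 0.00643; 0.29, 0.61 and 0.73 within groups; 0.58 without 2 mice). Piezo2 and Gja1 had r = 0.63 (rho = 0.61, adjusted permutation p = 0.00102 and 0.00122). The value was -0.13 in young mice beside 0.61 and 0.80 in the old groups, and r within a group was not tested.

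The target genes gave lower values. Ctgf and Cyr61 had r = 0.47 (rho = 0.48, adjusted permutation p = 0.00873 and 0.00673), with 0.81 in vehicle-treated and 0.56 in AP-treated mice but -0.17 in young mice, and 0.37 without 2 mice. Yap1 and Ctgf had r = -0.06 (rho = 0.01, adjusted permutation p = 0.762 and 0.9996), with 0.61 in young, -0.22 in vehicle-treated and -0.15 in AP-treated mice. Wwtr1 and Ctgf had r = 0.29 (rho = 0.38, adjusted permutation p = 0.141 and 0.0466), and 0.54 without 2 mice. Without AP mice 18 and 19 this pair passed (r = 0.57, adjusted p = 0.00121), and Yap1 and Ctgf had r = 0.18 (adjusted p = 0.401). Yap1 and Cyr61 had r = 0.18 (adjusted permutation p = 0.339), with -0.34 in young, -0.11 in vehicle-treated and 0.52 in AP-treated mice. Wwtr1 and Cyr61 had r = 0.28 (adjusted permutation p = 0.144), with -0.55, 0.29 and 0.73 within these groups. Differences in r between groups or pairs were not tested. Over all 41 mice Ptgs2 passed with Panx3 alone (r = 0.53, rho = 0.42, adjusted permutation p = 0.00873 and 0.0214). Within groups r was 0.33, 0.75 and 0.36, and it was 0.48 without the 2 mice farthest for Panx3, which were not chosen on Ptgs2. Without vehicle mouse 16 that pair had r = 0.42 (adjusted permutation p = 0.0508). Without AP mice 18 and 19, Ptgs2 also passed with Wwtr1 (r = 0.53, adjusted p = 0.00121) and Gja1 (r = 0.41, adjusted p = 0.0364). Without mouse 16, 14 of the 36 pairs passed, since Panx3 and Wwtr1 dropped out as well (r = 0.41 with it and 0.35 without it, adjusted p = 0.0282 and 0.0936).

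**Figure D3:**
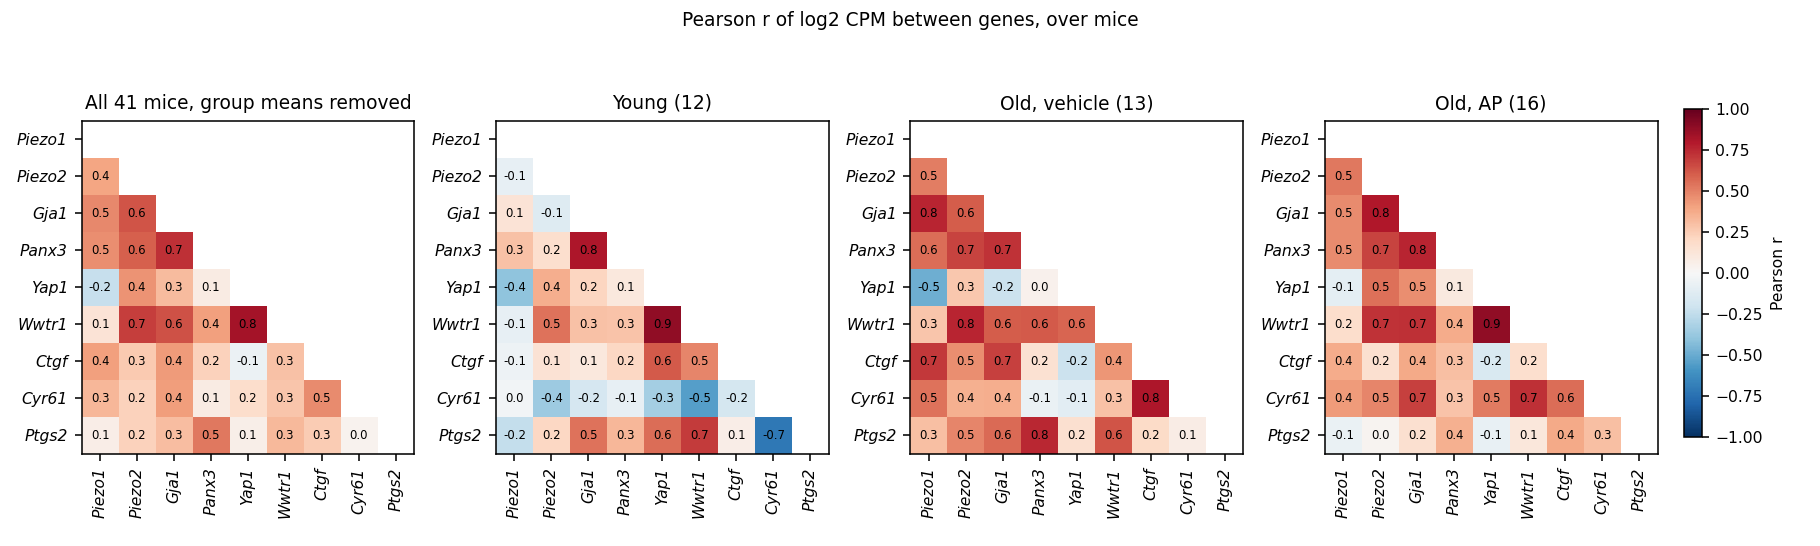
Pearson r of log2 CPM for each of the 36 pairs of genes, over all 41 mice with group means removed (left) and within young, vehicle-treated and AP-treated mice; colour and number give r. Yap1 with Wwtr1 and Gja1 with Panx3 are high in every panel, and Ctgf with Cyr61 is high only in the panels of old mice among the 3 groups.

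The genes also varied with markers of particular cell types, Ptgs2 by Pearson's r alone. Of 135 relations between the 9 genes and the summed CPM of 15 marker lists, 43 passed by Pearson's r, 35 positive and 8 negative. They were computed in the same way and added after the data had been seen. The share of all genes that would pass with these lists was not computed, so the count marks nothing particular to the 9 genes. Gja1 followed the osteoblast markers most closely (r = 0.90, rho = 0.90, adjusted permutation p = 0.000112 and 0.000123; 0.69, 0.89 and 0.94 in young, vehicle-treated and AP-treated mice; 0.88 without 2 mice), and osteoblast markers also went with Piezo1 (r = 0.72, rho = 0.80) and Panx3 (r = 0.68, rho = 0.63). In that list Col1a1 and Col1a2 hold most of the sum. Gja1 also went with the osteocyte (r = 0.68, rho = 0.62; 0.69, 0.39 and 0.76 within groups), chondrocyte (r = 0.65, rho = 0.58), osteoclast (r = 0.65, rho = 0.61) and fibroblast and tendon markers (r = 0.64, rho = 0.57). Yap1 followed the skeletal muscle markers (r = 0.83, rho = 0.81, adjusted permutation p = 0.000112 and 0.000123; 0.85, 0.78 and 0.90 within groups; 0.78 without 2 mice) and ran against the neutrophil (r = -0.74, rho = -0.76) and erythroid markers (r = -0.73, rho = -0.74). Wwtr1 followed the vascular smooth muscle and pericyte markers (r = 0.81, rho = 0.78; 0.62, 0.56 and 0.92 within groups; 0.70 without 2 mice) and the fibroblast and tendon markers (r = 0.65, rho = 0.78; 0.91, 0.86 and 0.52 within groups; 0.79 without 2 mice), and ran against the neutrophil markers (r = -0.75, rho = -0.71). Ctgf went with the fibroblast and tendon markers (r = 0.69, rho = 0.72; 0.58, 0.57 and 0.84 within groups; 0.71 without 2 mice). Cyr61 passed with the osteoblast (r = 0.45, rho = 0.54, adjusted permutation p = 0.0145 and 0.0023; -0.08, 0.52 and 0.65 within groups), the fibroblast and tendon (r = 0.40, rho = 0.48, adjusted permutation p = 0.0330 and 0.0080; -0.39, 0.41 and 0.80 within groups) and the osteocyte markers (r = 0.37, rho = 0.32, adjusted permutation p = 0.0460 and 0.107), of which the last did not pass without AP mice 18 and 19 (r = 0.28, adjusted p = 0.154). Without these mice r was 0.77 for Yap1 with the skeletal muscle and for Wwtr1 it was 0.69 with the smooth muscle and pericyte and 0.81 with the fibroblast and tendon markers. Over all 41 mice Ptgs2 passed with the fibroblast and tendon markers alone (r = 0.48, rho = 0.28, adjusted permutation p = 0.0179 and 0.167), and there r was 0.27 without 2 mice. It also passed with the neutrophil markers when AP mice 18 and 19 were left out (r = -0.51, rho = -0.19, adjusted permutation p = 0.0268 and 0.395), where r was -0.13 without 2 more mice. All these values are shares of the same library's reads, and the part of cell makeup in the group differences of the 9 genes was not tested.

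**Figure D4:**
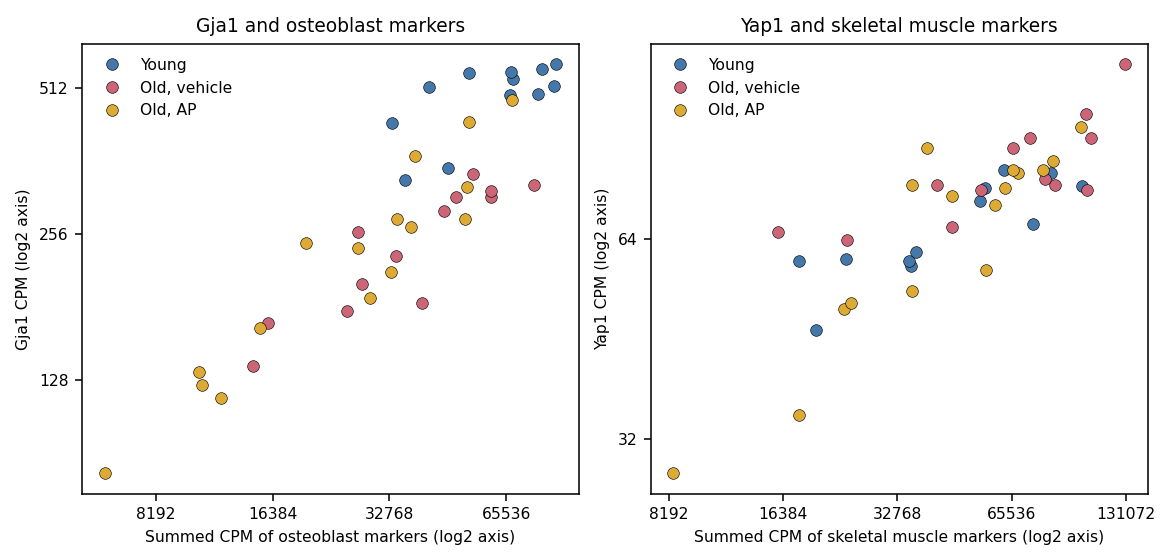
CPM of Gja1 against the summed CPM of 8 osteoblast markers (left) and of Yap1 against the summed CPM of 10 skeletal muscle markers (right), on log2 axes with 1 point per mouse, coloured by group. The points rise together within each group in both panels, with the groups overlapping along the marker axes.

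The genes whose residual pattern over the 41 mice was most like each of the 9 were sought among 15532 genes with a mean of at least 1 CPM, by Pearson's r on the same scale; these are descriptions with no test. For Gja1 they were Chn1 (r = 0.96), Sparc (0.95), an abundant matrix protein gene of osteoblasts, and Sgms2 (0.95), and all 3 were also lower in vehicle-treated than in young mice, with log2 fold changes of -1.14, -0.87 and -0.69 (adjusted p = 0.000761, 0.0129 and 0.00547). For Panx3 they were Fkbp11 (0.85), Kdelr3 (0.84) and Tbrg1 (0.84). For Yap1 they were Nfib (0.96), Msrb3 (0.95) and Etl4 (0.95), and for Wwtr1 Lamc1 (0.93), a laminin gene of basement membranes, Laptm4a (0.92) and Fam13c (0.92). For Piezo1 they were Man2b2 (0.94), Emilin1 (0.93) and Lmf2 (0.93), and for Piezo2 Slc6a7 (0.82), Bcl6b (0.81) and Zbed5 (0.78). Ctgf was closest to Timp3 (0.80), Gas1 (0.79) and Lrig3 (0.77). Cyr61 was closest to Ddit4 (0.83), Errfi1 (0.77) and Tsc22d3 (0.75), of which Ddit4 and Tsc22d3 are known glucocorticoid-responsive genes. For Ptgs2, Timp1 (0.78) and Csrp2 (0.78) are given, and without the 2 mice farthest from the median these values were 0.44 and 0.33.

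Other genes of the pathway were read from 8 lists with 121 genes, of which 110 passed the filter. In old vehicle-treated against young mice 13 of the 110 were called (11.8%, beside 9.06% of all genes), 9 higher and 4 lower, and 9 were called without vehicle mouse 16 and AP mouse 10. In old AP-treated against young mice 14 were called (12.7%, beside 8.58%), 6 higher and 8 lower. Without AP mice 18 and 19 the counts were 18 and 11, and Tead2, Wisp1 and Ptgis were no longer called. Between the old groups 0 were called by edgeR, with 25 (22.7%, beside 23.9% of all genes) at an unadjusted p under 0.05, and DESeq2 called 1, Lmna, a nuclear lamina gene named here after its value was seen.

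Downstream of Yap1 and Wwtr1, 4 of 20 other YAP and TAZ targets were higher in vehicle-treated than in young mice and none was lower (beside 4.30% of all genes higher and 4.76% lower), while the list's median was 0.04 beside 0.0066 over all genes. They were Ankrd1, a cardiac and muscle ankyrin repeat gene (30.3 ± 14.1 CPM (SD) in young and 115 ± 132 CPM in vehicle-treated mice; log2 fold change 1.92 ± 0.37 (SE), adjusted p = 0.000274), Foxf2 (1.23 ± 0.26, adjusted p = 0.000714), Gadd45a (0.79 ± 0.21, adjusted p = 0.00609) and Tgfb2 (0.72 ± 0.19, adjusted p = 0.00624). Gadd45a was not called without vehicle mouse 16 and AP mouse 10. In AP-treated mice Ankrd1 (1.21, adjusted p = 0.0129), Foxf2 (0.82, adjusted p = 0.0176) and Tgfb2 (0.57, adjusted p = 0.0268) were also above young, and Ccdc80, named after its value was seen, was below (-0.58, adjusted p = 0.00935). Of the 7 tested genes of the TEAD factors and their cofactors, Tead4 (1.14 ± 0.25, adjusted p = 0.00123, 4.63 ± 1.64 and 10.2 ± 5.47 CPM (SD)) and Vgll3 (0.81 ± 0.25, adjusted p = 0.0172) were higher in vehicle-treated mice (beside 4.30% of all genes). The list median was 0.51, beside 0.0066 over all genes. In AP-treated mice Tead4 was higher (0.72, adjusted p = 0.0339) and Tead2, named after its value was seen, lower (-0.54, adjusted p = 0.0281). Between the old groups all 7 had a negative log2 fold change, beside 50.6% of all genes, and none was called. The median was -0.35, beside -0.0037 over all genes. Without AP mice 18 and 19 all 7 were negative again, beside 51.4%, and the median was -0.22, beside -0.0063. Tead4 was at -0.42 over all mice (adjusted p = 0.249). The summed skeletal muscle markers were also highest in vehicle-treated mice (medians of 45352, 73512 and 50977 CPM in young, vehicle-treated and AP-treated mice), and their part in the values of the TEAD factors and the YAP and TAZ targets was not tested. The Hippo kinase cascade, which holds YAP and TAZ in the cytoplasm, gave 1 call among 21 genes, beside 9.06% of all genes called, Amotl1 in vehicle-treated mice (0.61 ± 0.21, adjusted p = 0.0404), and it was not called without mice 16 and 10. Of the 3 other CCN genes tested, none was called in vehicle-treated mice, and Wisp1, named after its value was seen, was lower in AP-treated mice (-0.59, adjusted p = 0.0448; -0.60 and adjusted p = 0.0510 in vehicle-treated mice).

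Of the other ion channel genes and the genes of integrins, focal adhesion and tension, 3 of 41 were called in vehicle-treated against young mice (7.32%, beside 9.06% of all genes) and 4 of 41 in AP-treated against young mice (9.76%, beside 8.58%). Among 16 other mechanosensitive ion channels Trpc6, a cation channel gene, was lower in vehicle-treated (-1.05 ± 0.21, adjusted p = 0.000436) and in AP-treated mice (-0.70 ± 0.20, adjusted p = 0.0111) against young, at 21.8 ± 6.63, 10.54 ± 3.23 and 13.4 ± 6.11 CPM (SD) in young, vehicle-treated and AP-treated mice. In AP-treated mice Kcnk2 was also lower (-0.68, adjusted p = 0.0128) and Tmem63c, at 0.231 CPM on average, higher (1.37, adjusted p = 0.0206), both named after their values were seen. Of 25 genes of integrins, focal adhesion and tension, Itga11, a collagen-binding integrin gene, was lower in vehicle-treated (-0.78 ± 0.18, adjusted p = 0.00147) and AP-treated mice (-0.90 ± 0.17, adjusted p = 0.000231), and Itgb3 in vehicle-treated mice (-0.53 ± 0.18, adjusted p = 0.0279), a call lost without mice 16 and 10. Among 13 other prostaglandin genes, which act beside Ptgs2, the prostaglandin transporter gene Slco2a1 was higher and Hpgd, which encodes the enzyme that breaks prostaglandins down, lower in vehicle-treated mice (0.62 ± 0.17, adjusted p = 0.0101; -0.68 ± 0.17, adjusted p = 0.0033) and in AP-treated mice (0.63, adjusted p = 0.00780; -0.67, adjusted p = 0.00324). Ptgis, the prostacyclin synthase gene, named after its value was seen, was lower in AP-treated mice (-0.58, adjusted p = 0.0323). The summed osteoblast (67201, 39640 and 31094 CPM) and fibroblast and tendon markers (2814, 1355 and 1207 CPM) were also lower in both old groups. Postn and Dcn held most of the fibroblast and tendon sum, while Thbs4 and Pi16 had higher medians in both old groups than in young mice. The part of these markers in the lower values of the list genes was not tested.

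**Figure D5:**
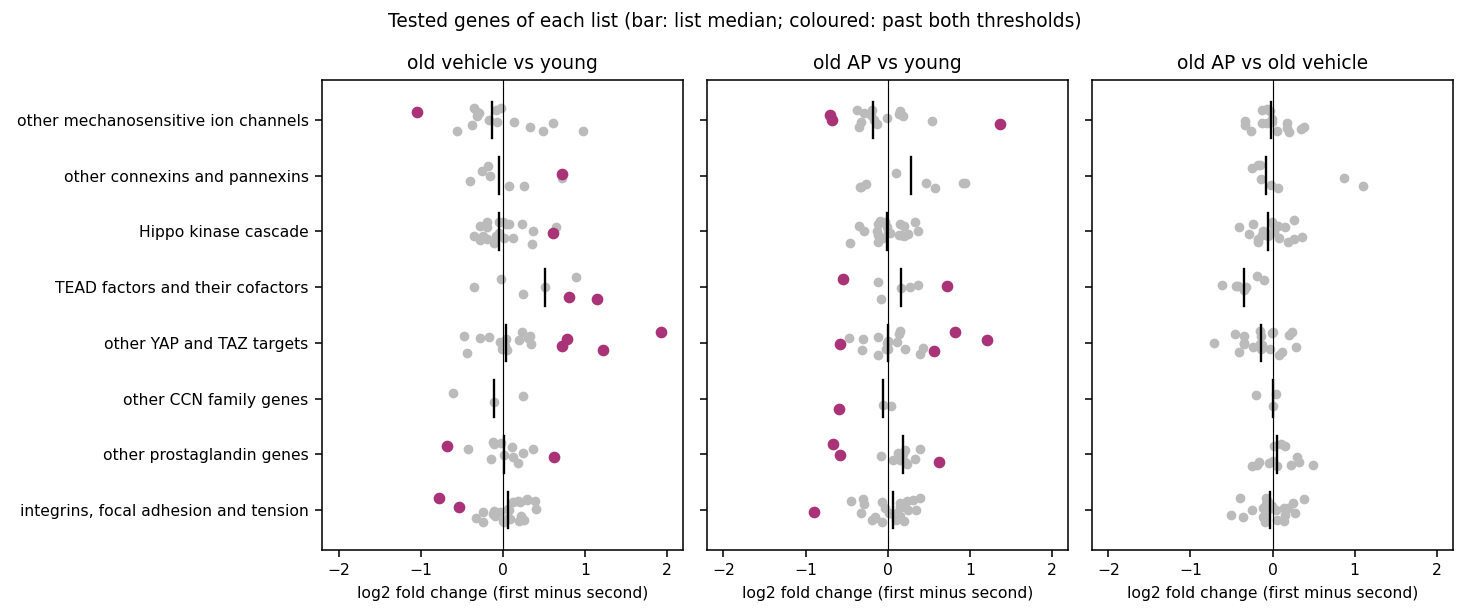
Log2 fold change (first group minus second) of each tested gene of the 8 lists in the 3 comparisons, with the list median as a bar and genes past both thresholds in colour. Coloured points lie in the age comparisons alone. All 7 genes of the TEAD list lie left of 0 in the comparison of the old groups, where 50.6% of all genes tested were negative.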

How the data were processed

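RNA of 41 INK-ATTAC mice was analysed from a table of counts, whole numbers of reads per gene, deposited by the authors; the submitters' processing notes name TopHat2 2.0.6, HTSeq and GRCm38. The annotation release and the use of strand are not given in the sources used here. The labels call the molecule genomic DNA, and the study describes RNA-seq. Groups were taken from the labels. The 9 genes and all lists were chosen with earlier results of these data known. Counts were filtered (filterByExpr), scaled by TMM and tested in 1 model of the 3 groups with edgeR 4.0.16 (quasi-likelihood, R 4.3.3) with Benjamini-Hochberg adjustment over 19292 genes; SEs were derived from the F statistic. The prior count of log2 CPM was 2. Named genes were the 9 members, up to 4 genes per list (those called with age under vehicle, by size of change, and any called between the old groups), and the 3 genes most like each member. Some genes that this rule names are not reported here. The test was checked on simulated data. Mice are separate animals with no shared numbers. All 37 mitochondrial genes were at 0 in every mouse. Total counts ran from 37028959 to 75942717, and Ptgs2 had the largest SE of the 9 genes. Alternatives were DESeq2 1.42.0, its size factors, no filter, a mean of at least 1 CPM, models of 2 groups, no fold threshold, limma 3.58.1 voom with sample weights, a permutation test with 100000 resamples, and each mouse left out, to which fits without mice 16 and 10 and without mice 18 and 19 were added after seeing the data. Sequences are from RefSeq (GRCm38.p6), in Python 3.11.15.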

Additional observations from a re-analysis of the deposited data

How the results depend on the processing

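Between vehicle-treated and young mice 2 of the 9 genes were called, and 1 with DESeq2, with limma sample weights and without vehicle mouse 16 and AP mouse 10 (chosen after seeing the data); the gene lost was Ptgs2. Between the old groups it was 0, and 1 (Cyr61) with DESeq2. With each mouse left out, the counts ranged from 1 to 3, from 2 to 3 and from 0 to 1 in vehicle against young, AP against young and AP against vehicle. Of the genes of the lists, 29 in place of 13 (vehicle against young) and 27 in place of 14 (AP against young) passed with no fold threshold (26.4% and 24.5%, beside 19.4% and 17.8% of all genes), and DESeq2 called 1 in place of 0 between the old groups. Of 384 list counts under 8 alternatives 42 moved by more than 1.5 times, 16 of them with no fold threshold. Of 270 fold changes of the 9 genes under the other alternatives, 247 kept direction and side of the threshold, 4 lost a call, 3 gained one and 16 changed sign. No call of Gja1, or of Cyr61 for AP against young, was among those lost.

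The 16 sign changes were of values near 0 or of Ptgs2. With limma sample weights they were Panx3 at -0.072 and Wwtr1 at -0.042 (vehicle against young), Panx3 at -0.12 (AP against young), and Piezo2 at 0.077, Gja1 at 0.062, Panx3 at -0.043 and Ptgs2 at 0.076 (AP against vehicle). Without mice 16 and 10 they were Panx3 at -0.034 and Wwtr1 at -0.040 (vehicle against young) and Ptgs2 at 0.13 (AP against vehicle), and DESeq2 gave 0.13 for the last. Without AP mice 18 and 19 (also chosen after seeing the data) they were Wwtr1 at -0.00091 (vehicle against young), and Piezo2 at 0.038 and Gja1 at 0.080 (AP against vehicle), and r became 0.18 for Yap1 with Ctgf and -0.030 for Yap1 with Cyr61. The permutation test of mean log2 CPM gave -0.027 for Yap1 (AP against young) and -0.00495 for Panx3 (AP against vehicle). With each mouse left out, 1056 of 1107 fold changes kept direction and side, 1 lost a call, 7 gained one and 43 changed sign. The results with a change of sign ranged from -0.076 to 0.013 (Piezo1), -0.034 to 0.26 (Panx3) and -0.042 to 0.041 (Wwtr1) for vehicle against young, from -0.033 to 0.27 (Panx3) and -0.024 to 0.073 (Yap1) for AP against young, and from -0.16 to 0.021 (Piezo2), -0.11 to 0.047 (Gja1), -0.20 to 0.24 (Panx3) and -1.36 to 0.97 (Ptgs2) for AP against vehicle. Without vehicle mouse 16, r of Ptgs2 became -0.033 with Cyr61 and -0.036 with Yap1. Of the member pairs 16 passed on variance-stabilized values too. The cause of these changes was not tested, apart from Ptgs2, where the mice left out hold its highest values. No paired analysis was possible because the mice of the groups carry different numbers. No batch is labelled, so none could be fitted. Depth limits Ptgs2 most, with 12 reads in its lowest library.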
